A study of Mus musculus with 8 samples.

Results

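The genes described here are 39 enzymes that build the precursors of RNA and DNA, together with the serine and folate enzymes that supply their one-carbon units. They were chosen by symbol from a list that was drawn up with earlier results of these data known, so the counts are a description of these genes and not independent evidence. A gene entered if the deposited table held a row with that symbol alone, and of several rows the brightest over all arrays was kept. That gave 36 of the 39 genes, out of 22180 genes with a row of 1 symbol. Pfas and Nme2 were listed only on rows shared with another gene, and Impdh2 was not analysed here. All 36 passed the filter on dim genes, a mean of at least 5.24 on the log2 scale, among 12019 genes that did. They were grouped as pyrimidine synthesis (6 genes), purine synthesis (10 measured), deoxynucleotide synthesis (8 measured), salvage (4) and serine and folate metabolism (8).

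PD-1hi effector CD8 T cells were profiled on 8 arrays, 4 from mice treated with an antibody that blocks the interleukin 10 receptor (anti-IL-10R) and 4 from mice treated with the isotype control antibody. All mice, in both groups, were female C57BL/6 animals that carried transplanted leukaemia cells from Eµ-TCL1 mice, a model of chronic lymphocytic leukaemia in which a B cell transgene drives the disease, while the hosts keep their own T cells. Antibody was started 3 weeks after the transplant and given for 2 weeks, and spleens were taken at 5 weeks. The cells were sorted as lineage-negative, TCRβ+, CD8+, CD127 low, CD44 intermediate to high and PD-1 high. The ages of the mice, and whether 1 array stands for 1 mouse, are not stated in the labels, so p-values cover only the spread between arrays, which may be technical.

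Pyrimidines and purines are each built stepwise on the sugar phosphate PRPP or joined to it, and the purine ring takes formyl groups from folate. Serine is the main donor of these one-carbon units, through a mitochondrial arm and a cytosolic arm of folate metabolism. Ribonucleotide reductase and thymidylate synthase then turn ribonucleotides into the building blocks of DNA, and salvage enzymes recover bases and nucleosides. Activated T cells raise these pathways strongly before they divide. The transcription factors MYC, E2F and ATF4 are known activators of many of the genes.

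Of 8 measured T cell markers 7 had higher means after blockade, and none passed limma's test. Cd3e signals lay at 12.57 to 12.61 on the anti-IL-10R arrays and at 12.23 to 12.45 on the isotype arrays, and Cd8a at 11.11 to 11.15 and 10.72 to 10.91. The exception was Cd2, an adhesion receptor of T cells, at 10.01 to 10.16 on anti-IL-10R arrays and 10.30 to 10.50 on isotype arrays, groups apart (limma adjusted p = 0.0986). The mean of 11 B cell markers was 4.83 to 5.00 on anti-IL-10R arrays and 4.84 to 5.45 on isotype arrays, with 10 of the 11 lower after blockade, and 4 of the 11 passed the filter on dim genes. Isotype replicate 1 stood apart from all other arrays. It correlated with them at 0.915 to 0.929 over the tested genes (Pearson's r, taken over genes that are not independent of each other), while the other 7 correlated with one another at 0.962 to 0.986. Foxp3, the marker of regulatory T cells, read 7.97 on that array, against 5.08 to 5.64 on the anti-IL-10R arrays and 5.46 to 5.95 on the 3 other isotype arrays. Foxp3 was 1 of 3 CD4 T cell markers with a row, of which 2 passed the filter on dim genes. The mean of these 2 was 7.03 on isotype replicate 1, against 5.61 to 5.91 on all other arrays. Of the 2, 1 had a lower and 1 a higher mean after blockade (differences of -0.92 and 0.21). Foxp3 alone does not identify the cells. The part of B cells and regulatory T cells in the results was not tested, and the counts are given with and without isotype replicate 1.

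Over the whole set, 31 of 36 genes had lower means after IL-10R blockade, where 45.3% of all tested genes did. The median log2 difference (anti-IL-10R minus isotype, as throughout) was -0.35, beside 0.03 over all 12019 genes. Past the threshold, an adjusted p below 0.05 in limma's test over all tested genes, 10 members fell and none rose. At an unadjusted p below 0.05 in limma, 20 were lower, beside 8.53% of all tested genes. None was higher, where 1377 of all 12019 were. The 10 are 27.8% of the 36, beside 1.3% of all tested genes called lower and 1.23% called higher. They were Nme1, Umps, Mthfd1, Rrm2, Tyms, Shmt2, Ctps, Cad, Gart and Dck, from all 5 branches, and they fell 1.53- to 2.16-fold. In bulk RNA of sorted cells, fewer cells that express a gene and less RNA per cell cannot be told apart.

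Without isotype replicate 1, 17 of the 36 were lower past the threshold, beside 5.9% of all tested genes (3.35% were higher), and none was higher. All 10 genes were among the 17. The 7 added were Paics, Atic, Rrm1, Dut, Psat1, Shmt1 and Mthfd2. Leaving out any other array ended most calls, since the count was 2 without anti-IL-10R replicate 1, 1 without anti-IL-10R replicate 2, 0 without anti-IL-10R replicates 3 or 4, 0 without isotype replicates 2 or 4 and 1 without isotype replicate 3. Most calls among all tested genes ended as well. From 156 with all arrays, 38, 6, 5 and 6 genes were lower without anti-IL-10R replicates 1 to 4. Without isotype replicates 2 to 4, 22, 24 and 1 were lower. The median of the set stayed between -0.44 and -0.30 in the 8 fits with 1 array left out. With the mean of the B cell markers added as a covariate it was -0.42. No member passed then (limma adjusted p 0.106 to 0.17 for the 10). That covariate ended nearly all calls over all tested genes too, with 1 lower and 2 higher, from 156 and 148. After quantile normalization of the arrays 14 members were lower past the threshold, and over all tested genes 427 were lower and 204 higher.

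**Figure D1:**
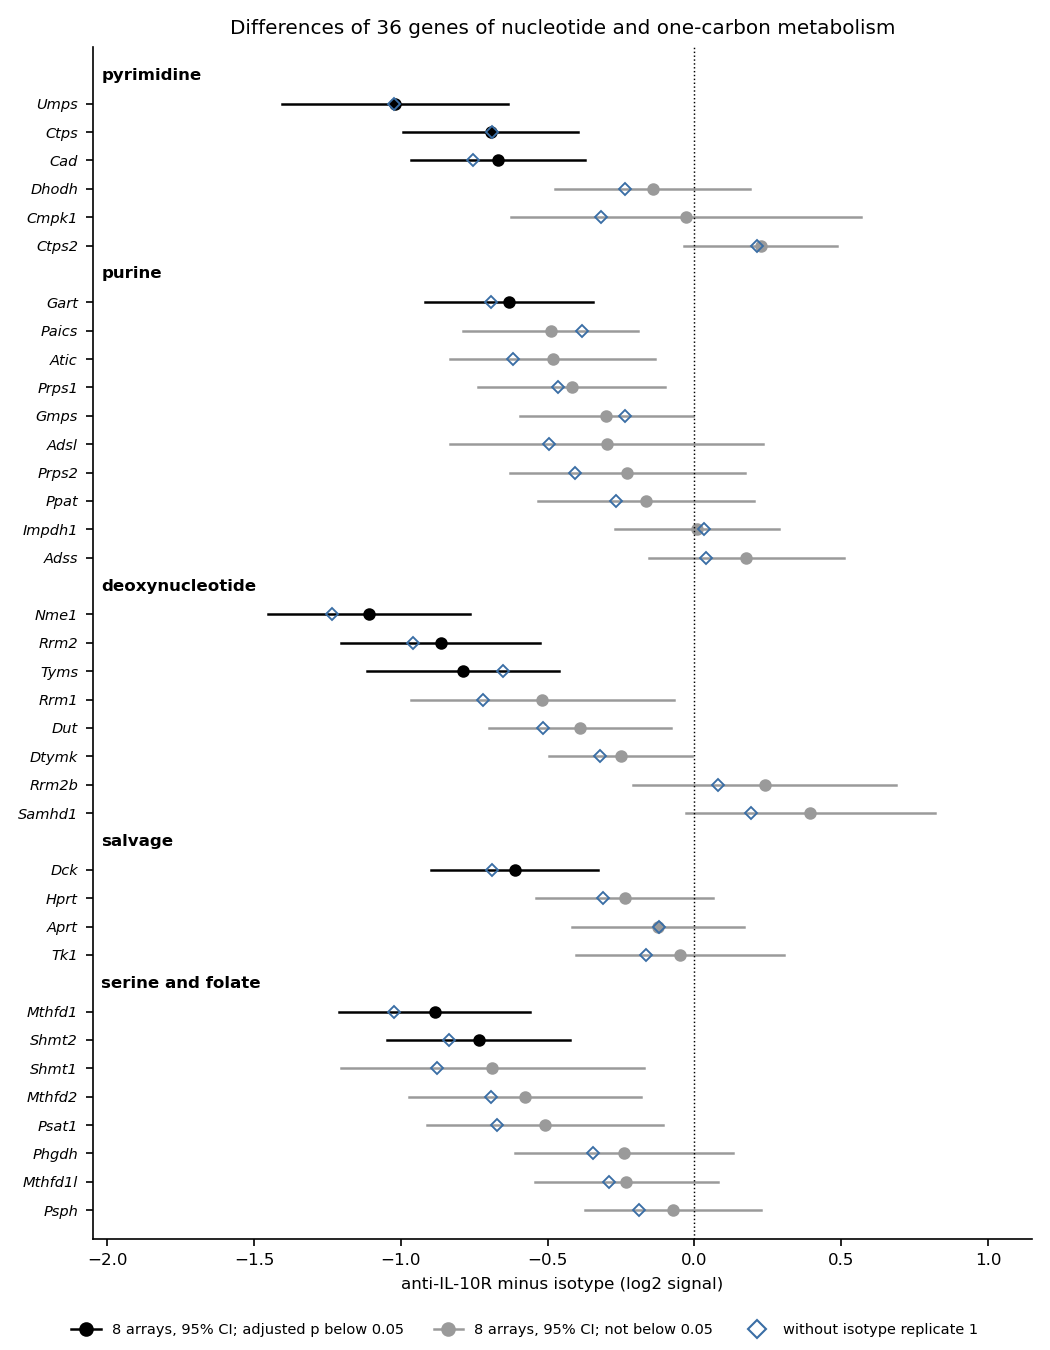
Difference between anti-IL-10R and isotype arrays (log2 signal) for the 36 genes in 5 branches, with the 95% confidence interval of limma, and the difference without isotype replicate 1 as open diamonds. The 10 black points passed the threshold and all lie below 0, while Samhd1, Rrm2b, Ctps2, Adss and Impdh1 lie above 0 and did not pass.

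The promoters of the 5 genes with the lowest differences are shown so that MYC and E2F sites near their starts can be looked for. These 5 were picked by their differences, so their shared direction follows from that choice. Each is the RefSeq window on GRCm38.p6 that runs from 250 bases before the gene's start to 50 bases after it, 5′ to 3′ on the gene's strand. Capitals mark CACGTG (the E-box that MYC binds), CCAAT (the CCAAT box) and GGGCGG (the GC box), read on both strands. The windows are Nme1 at chr11:93968223-93968522 on the minus strand (1 of 2 windows of this gene), Umps at chr16:33966989-33967288 on the minus strand, Mthfd1 at chr12:76254982-76255281 on the plus strand, Rrm2 at chr12:24708004-24708303 on the plus strand and Tyms at chr5:30073576-30073875 on the minus strand.
Nme1: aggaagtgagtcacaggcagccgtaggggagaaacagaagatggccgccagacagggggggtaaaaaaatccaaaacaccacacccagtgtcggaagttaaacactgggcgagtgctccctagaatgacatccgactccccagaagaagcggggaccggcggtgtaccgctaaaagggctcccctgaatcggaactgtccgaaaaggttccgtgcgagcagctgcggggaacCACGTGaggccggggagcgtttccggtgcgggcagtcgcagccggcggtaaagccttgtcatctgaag
Umps: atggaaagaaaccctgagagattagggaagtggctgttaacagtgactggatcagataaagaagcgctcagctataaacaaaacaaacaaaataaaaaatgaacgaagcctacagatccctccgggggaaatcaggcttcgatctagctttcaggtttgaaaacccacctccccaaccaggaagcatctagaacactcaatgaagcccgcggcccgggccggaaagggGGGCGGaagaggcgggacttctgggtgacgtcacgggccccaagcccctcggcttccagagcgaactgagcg
Mthfd1: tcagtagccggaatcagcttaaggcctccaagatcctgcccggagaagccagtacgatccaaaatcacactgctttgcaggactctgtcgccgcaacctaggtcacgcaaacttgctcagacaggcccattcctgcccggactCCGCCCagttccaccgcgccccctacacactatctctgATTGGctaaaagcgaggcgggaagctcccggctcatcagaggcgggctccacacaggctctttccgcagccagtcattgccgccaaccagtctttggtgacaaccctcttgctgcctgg
Rrm2: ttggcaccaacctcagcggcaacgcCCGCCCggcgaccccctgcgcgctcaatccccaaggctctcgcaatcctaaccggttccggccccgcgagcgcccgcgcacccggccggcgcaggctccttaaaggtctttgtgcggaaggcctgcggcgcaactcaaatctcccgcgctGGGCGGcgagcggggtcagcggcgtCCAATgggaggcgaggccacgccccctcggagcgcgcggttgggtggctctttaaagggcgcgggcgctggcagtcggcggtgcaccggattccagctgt
Tyms: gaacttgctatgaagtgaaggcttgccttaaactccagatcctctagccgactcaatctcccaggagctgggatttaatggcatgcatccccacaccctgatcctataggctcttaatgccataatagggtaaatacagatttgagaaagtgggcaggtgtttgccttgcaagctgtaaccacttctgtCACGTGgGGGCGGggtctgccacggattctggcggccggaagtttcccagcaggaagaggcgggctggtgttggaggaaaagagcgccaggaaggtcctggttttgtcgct
In these windows the E-box begins 18 bases before the start of Nme1 and 61 bases before that of Tyms, where a GC box follows it closely. Umps has a single GC box, and Mthfd1 and Rrm2 have a CCAAT box with 1 and 2 GC boxes.

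The table of promoters held 40 windows for 34 of the 36 genes. The E-box was in 6 of the 40 windows (15%), those of Nme1, Tyms, Paics, Atic and Dtymk, and in 7.15% of all 32851 windows. The GC box was in 27 windows (67.5%), against 35.66% of all, and the CCAAT box in 14 (35%), against 37.41% of all. Of the E2F sites, TTTCCCGC was in 2 windows, those of Ppat and Prps2, against 1.07% of all, and TTTGGCGC was in none, against 0.51% of all. TGATGNAA, the amino acid response element through which ATF4 acts, was in the window of Prps1 alone, against 3.97% of all windows. None of these motifs overlaps another of the set by its letters in the 5 printed windows. A match describes these letters only.

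In pyrimidine synthesis, 3 of 6 genes passed, all lower after blockade. They were the genes of the first and last steps of UMP synthesis and 1 of the 2 CTP synthase genes. The branch median was -0.41. Umps, which turns orotate into UMP, read 7.96, 8.50, 7.70 and 7.95 on the anti-IL-10R arrays and 9.03, 9.18, 8.83 and 9.15 on the isotype arrays. The lowest isotype array lay above the highest treated one, and Umps was 2.03-fold lower (difference -1.02 ± 0.17, SE, limma adjusted p = 0.0255). Cad, the fused enzyme of the opening steps, read 8.50, 8.26, 8.39 and 8.34 on anti-IL-10R arrays and 8.78, 8.99, 9.06 and 9.33 on isotype arrays. It fell by 0.67 ± 0.13 with groups apart (limma adjusted p = 0.0378, and 0.0081 without isotype replicate 1). Dhodh, the mitochondrial enzyme between these 2 in the pathway, read 5.91 to 6.36 on anti-IL-10R arrays and 6.02 to 6.59 on isotype arrays. Its difference was -0.14 ± 0.15 (-0.24 without isotype replicate 1) and the groups overlapped.

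Of the 2 CTP synthases, 1 passed. Ctps, the form that human lymphocytes need in order to proliferate, read 7.43, 7.50, 7.75 and 7.66 on anti-IL-10R arrays and 8.29, 8.49, 8.0 and 8.33 on isotype arrays. It was 1.62-fold lower, a difference of -0.69 ± 0.13 (limma adjusted p = 0.0353). Ctps2, the second CTP synthase, read 8.60, 8.56, 8.67 and 8.39 on anti-IL-10R arrays and 8.29, 8.48, 8.41 and 8.14 on isotype arrays. That is a difference of 0.23 ± 0.12, which did not pass (limma adjusted p = 0.32). The log2 ratio of Ctps to Ctps2 within an array was -1.17, -1.07, -0.93 and -0.73 after blockade and 0.00, 0.00, -0.40 and 0.18 with isotype. The groups did not overlap, and the ratio was lower by 0.92 ± 0.16 (exact permutation p = 0.0286, the smallest that 4 against 4 arrays can give, and 0.0571 after adjustment over 8 pairs). Cmpk1, which phosphorylates UMP and CMP, differed by -0.03 ± 0.27, and by -0.32 without isotype replicate 1, which read 6.93 against 7.95 to 8.23 on the other isotype arrays.

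In purine synthesis, 8 of 10 measured genes had lower means, the median was -0.30, and 1 gene passed. Gart, which carries out 3 steps of the ring's assembly, read 8.50, 8.72, 8.91 and 8.54 on anti-IL-10R arrays and 9.12, 9.41, 9.30 and 9.38 on isotype arrays. The groups were apart and Gart was 1.55-fold lower (difference -0.63 ± 0.13, SE, limma adjusted p = 0.0391). It had 3 rows, all below 0, with differences of -0.63, -0.69 and -0.20, the last on the dimmest row. Paics, which covers the steps after it, read 6.96, 7.01, 6.75 and 7.02 on anti-IL-10R arrays and 7.74, 7.32, 7.26 and 7.37 on isotype arrays. These groups were apart as well, with a difference of -0.49 ± 0.13 (limma adjusted p = 0.0826, and 0.0462 without isotype replicate 1, where the difference was -0.38).

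Ppat, the enzyme of the committed step, has its start 276 bases inside Paics on the other strand of chromosome 5, so their annotated 5′ ends overlap. Where the probes lie was not tested. It read 9.40 to 9.93 on anti-IL-10R arrays and 9.53 to 10.07 on isotype arrays, with overlap and a difference of -0.16 ± 0.16. Without isotype replicate 1 that difference was -0.27. Atic, which closes the ring to give IMP, read 8.03, 7.85, 7.97 and 7.71 on anti-IL-10R arrays and 7.97, 8.36, 8.59 and 8.57 on isotype arrays. All anti-IL-10R arrays lay below isotype replicates 2 to 4, and replicate 1 lay among them. The difference was -0.48 ± 0.16 (limma adjusted p = 0.126, and 0.0133 without isotype replicate 1).

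None of the genes before and after the ring's assembly passed. Prps1 and Prps2, which make PRPP, differed by -0.42 ± 0.14 and -0.23 ± 0.18. Prps1 read 8.40, 7.90, 8.02 and 7.89 after blockade and 8.33, 8.59, 8.60 and 8.35 with isotype, and anti-IL-10R replicate 1 alone lay in the isotype range. Prps2 read 8.54, 8.60, 8.38 and 8.63 after blockade and 8.23, 8.87, 8.84 and 9.12 with isotype, and its difference was -0.41 without isotype replicate 1. The within-array ratio of these 2 differed by -0.19 ± 0.23 (exact permutation p = 0.486). Adsl, which acts on both the route to IMP and the route to AMP, differed by -0.30 ± 0.24, and Gmps, the GMP synthase, by -0.30 ± 0.13 (limma adjusted p = 0.242). Adss, which commits IMP to AMP, and Impdh1, which commits it to GMP, differed by 0.18 ± 0.15 and 0.01 ± 0.12, and the 95% interval for Impdh1 ran from -0.27 to 0.29. Single arrays moved the values of Adss and Adsl, since without isotype replicate 1 that of Adss was 0.04 and that of Adsl -0.50, while without isotype replicate 2 that of Adsl was -0.12.

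In deoxynucleotide synthesis, 6 of 8 measured genes had lower means, the median was -0.45, and 3 genes passed. Nme1, a kinase that makes nucleoside triphosphates from diphosphates, had the lowest difference of all members. It read 7.17, 6.99, 7.06 and 6.77 on anti-IL-10R arrays and 7.72, 8.20, 8.36 and 8.14 on isotype arrays, 2.16-fold lower with groups apart (difference -1.11 ± 0.15, SE, limma adjusted p = 0.017). Nme2 is a close paralog beside it in the genome, and its share in this signal was not tested, so the value for Nme1 alone is uncertain. Tyms, thymidylate synthase, read 8.97, 8.73, 8.82 and 8.94 on anti-IL-10R arrays and 10.06, 9.53, 9.55 and 9.47 on isotype arrays. It was 1.73-fold lower (limma adjusted p = 0.0334), and its highest value was on isotype replicate 1, the array that was lowest of its group for 28 of the 36 members. That array was also lowest of its group in the mean over all 12019 tested genes, at 7.21 against 7.43 to 7.45, so low readings there are not particular to the members.

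The subunits of ribonucleotide reductase, the enzyme that reduces ribonucleotides to deoxyribonucleotides, are given here in turn, and Rrm2 alone passed. Rrm2, the small subunit of S phase, read 9.05, 8.47, 8.72 and 8.71 on anti-IL-10R arrays and 9.31, 9.65, 9.71 and 9.73 on isotype arrays. It was 1.82-fold lower with groups apart (difference -0.86 ± 0.15, limma adjusted p = 0.0294), and its second row gave -0.77. Rrm1, the large subunit, read 8.69, 8.62, 8.34 and 8.72 on anti-IL-10R arrays and 8.50, 9.22, 9.26 and 9.46 on isotype arrays. Isotype replicate 1 lay among the treated arrays, and the difference was -0.52 ± 0.20 (limma adjusted p = 0.191, and 0.0105 without that array, where it was -0.72).

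Rrm2b, the small subunit that p53 induces and that serves cells outside S phase, went the other way in its mean. It read 7.12, 7.11, 7.45 and 6.81 on anti-IL-10R arrays and 6.41, 6.84, 7.30 and 6.99 on isotype arrays, with overlap and a difference of 0.24 ± 0.20 (0.08 without isotype replicate 1). The log2 ratio of Rrm2 to Rrm2b was 1.93, 1.36, 1.27 and 1.91 after blockade and 2.91, 2.81, 2.42 and 2.75 with isotype. It was lower by 1.10 ± 0.21 with groups apart (exact permutation p = 0.0286, adjusted p = 0.0571 over the 8 pairs). The ratio of Rrm2 to Rrm1 differed by -0.35 ± 0.17 with overlap (exact permutation p = 0.143).

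The other 3 genes of this branch, which act on dUTP, dTMP or the whole deoxynucleotide pool, did not pass. Dut, which destroys dUTP and so keeps uracil out of DNA, read 8.47, 8.53, 8.39 and 8.49 on anti-IL-10R arrays and 8.48, 9.06, 8.87 and 9.01 on isotype arrays. The difference was -0.39 ± 0.14 (limma adjusted p = 0.158, and 0.0134 without isotype replicate 1). Dtymk, thymidylate kinase, read 9.14 to 9.20 on anti-IL-10R arrays and 9.22 to 9.60 on isotype arrays, groups just apart, with a difference of -0.25 ± 0.11 (limma adjusted p = 0.238). Samhd1, which breaks deoxynucleotides down, was the one member with all anti-IL-10R arrays (10.58 to 10.70) above all isotype arrays (9.65 to 10.53). Its difference of 0.39 ± 0.19 did not pass (limma adjusted p = 0.283) and was 0.19 without isotype replicate 1. In all, 12 members had anti-IL-10R arrays wholly below the isotype arrays and 1 wholly above, where 5.99% and 9.32% of all tested genes did so.

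In the salvage branch, 1 of 4 genes passed and the median was -0.18. Dck, the kinase that recovers deoxycytidine and other deoxynucleosides, read 7.75, 7.47, 7.71 and 7.60 on anti-IL-10R arrays and 8.01, 8.45, 8.17 and 8.35 on isotype arrays. It was 1.53-fold lower with groups apart (difference -0.61 ± 0.13, limma adjusted p = 0.0422). Tk1, the thymidine kinase of S phase, read 9.39, 9.16, 9.56 and 9.13 on anti-IL-10R arrays and 9.01, 9.53, 9.58 and 9.32 on isotype arrays. The groups overlapped fully, with a difference of -0.05 ± 0.16, a 95% interval from -0.40 to 0.30 and a value of -0.17 without isotype replicate 1. Both Tyms and Tk1 supply dTMP, and the log2 ratio of Tyms to Tk1 was -0.42, -0.43, -0.74 and -0.19 after blockade and 1.05, 0.01, -0.03 and 0.16 with isotype. It was lower by 0.74 ± 0.28 with groups apart (exact permutation p = 0.0286, adjusted p = 0.0571). Isotype replicate 1 held the highest ratio by far, and without it the difference was -0.49. Hprt, which salvages hypoxanthine and guanine, read 9.70, 10.05, 9.85 and 9.77 on anti-IL-10R arrays and 9.86, 10.26, 9.96 and 10.24 on isotype arrays, a difference of -0.24 ± 0.13 with overlap. Aprt, which salvages adenine, differed by -0.12 ± 0.13.

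**Figure D2:**
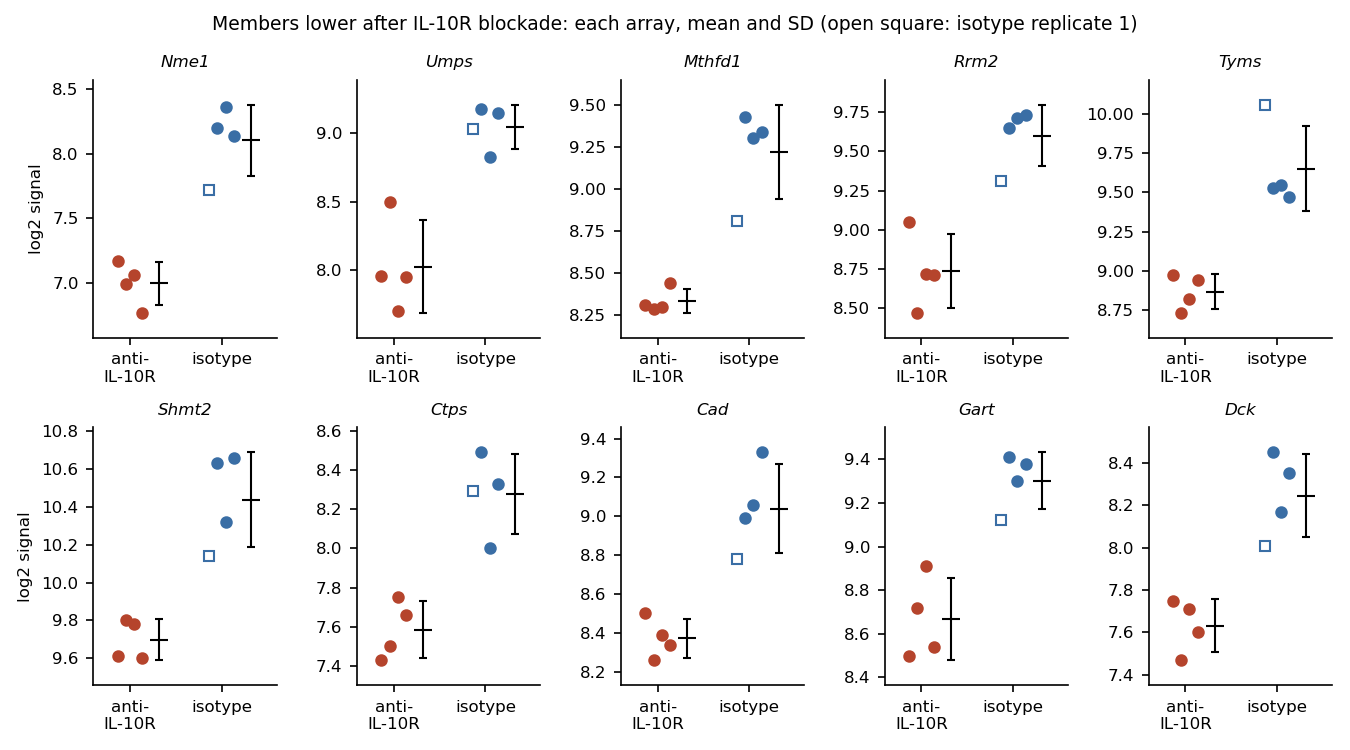
Log2 signal on each array for the 10 genes past the threshold, anti-IL-10R on the left of each panel and isotype on the right, with mean and SD (n = 4) and isotype replicate 1 as an open square; each panel has its own axis, which does not start at 0. In every panel the 4 anti-IL-10R points lie below the 4 isotype points, and isotype replicate 1 is the lowest isotype point for 7 of the 10, while for Tyms it is the highest at 10.06.

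In serine and folate metabolism, all 8 genes had lower means, the median was -0.54, and 2 genes passed. Mthfd1, the cytosolic enzyme that interconverts folate one-carbon units and feeds purines and thymidylate, read 8.31, 8.29, 8.30 and 8.44 on anti-IL-10R arrays and 8.81, 9.43, 9.30 and 9.34 on isotype arrays. It was 1.85-fold lower with groups apart (difference -0.88 ± 0.15, SE, limma adjusted p = 0.0236). Shmt2, the mitochondrial enzyme that takes the one-carbon unit from serine, read 9.61, 9.80, 9.78 and 9.60 on anti-IL-10R arrays and 10.14, 10.63, 10.32 and 10.66 on isotype arrays. It was 1.67-fold lower with groups apart (difference -0.74 ± 0.14, limma adjusted p = 0.0342).

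The cytosolic counterpart of Shmt2 and the mitochondrial counterparts of Mthfd1 were lower in their means without passing. Shmt1 read 7.16, 7.20, 6.73 and 7.37 on anti-IL-10R arrays and 7.23, 8.13, 7.63 and 8.22 on isotype arrays, a difference of -0.69 ± 0.23 (limma adjusted p = 0.137, and 0.0206 without isotype replicate 1). The ratio of Shmt2 to Shmt1 differed by -0.05 ± 0.20 (exact permutation p = 0.857). Mthfd2, the mitochondrial dehydrogenase of the pathway, read 7.65, 7.24, 7.33 and 7.09 on anti-IL-10R arrays and 7.55, 7.78, 8.03 and 8.25 on isotype arrays. Its difference was -0.58 ± 0.18 (limma adjusted p = 0.11, and 0.0272 without isotype replicate 1), and its ratio to Mthfd1 differed by 0.31 ± 0.18 with overlap (exact permutation p = 0.171). Mthfd1l, which releases formate from mitochondria, read 8.52, 8.40, 8.81 and 8.43 on anti-IL-10R arrays and 8.60, 8.92, 8.61 and 8.96 on isotype arrays. It differed by -0.23 ± 0.14 and did not pass, and the log2 ratio of Mthfd1l to Mthfd1 was 0.21, 0.12, 0.51 and -0.01 after blockade and -0.21, -0.50, -0.69 and -0.38 with isotype. That ratio was higher by 0.65 ± 0.15 with groups apart (exact permutation p = 0.0286, adjusted p = 0.0571).

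None of the 3 enzymes that make serine from a glycolytic intermediate passed with all 8 arrays. Psat1, the transaminase, read 7.32, 7.23, 7.21 and 6.86 on anti-IL-10R arrays and 7.18, 7.78, 7.74 and 7.96 on isotype arrays. All treated arrays lay below isotype replicates 2 to 4, with a difference of -0.51 ± 0.18 (limma adjusted p = 0.155, and 0.0157 without isotype replicate 1). Phgdh, the opening enzyme, differed by -0.24 ± 0.17 (7.06 to 7.56 on anti-IL-10R arrays and 7.24 to 7.90 on isotype arrays). Psph, the closing phosphatase, differed by -0.07 ± 0.13 (7.95 to 8.11 and 7.74 to 8.25), and by -0.19 without isotype replicate 1.

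**Figure D3:**
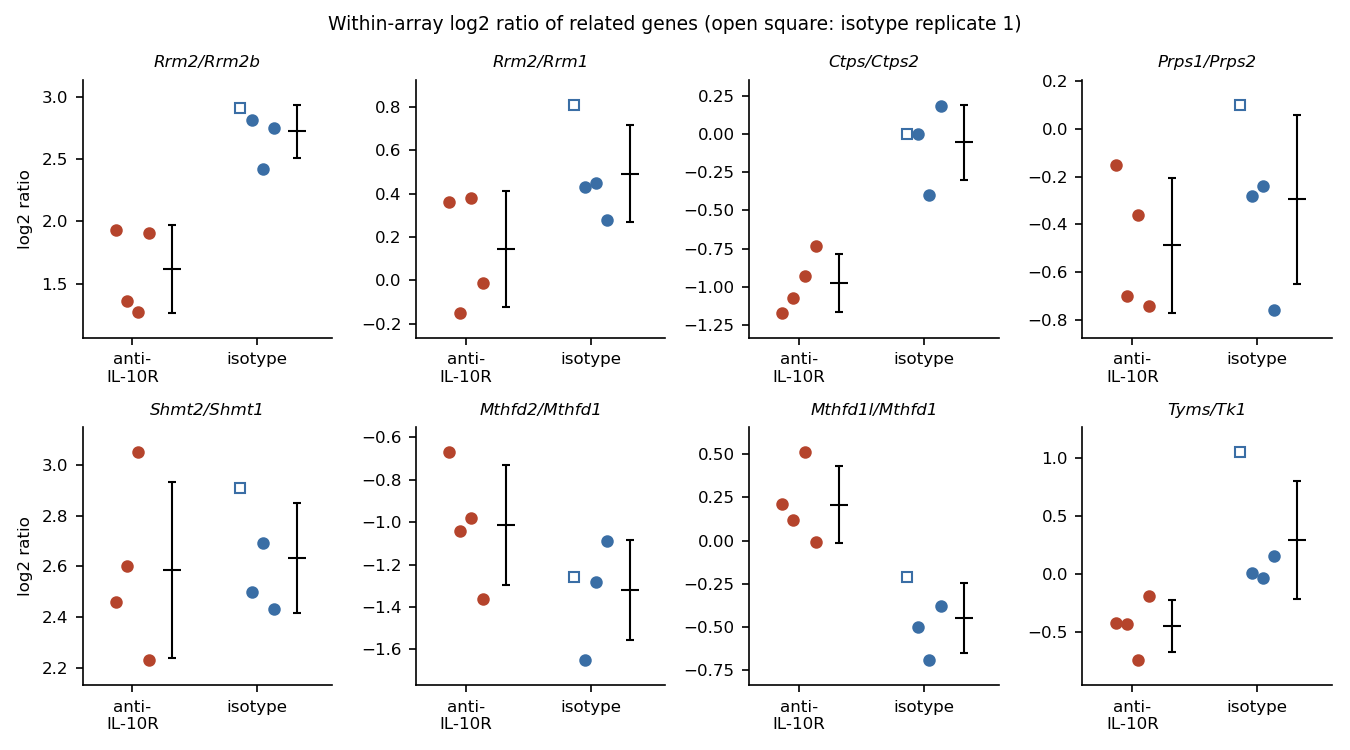
Log2 ratio of 2 related genes within each array for 8 pairs, anti-IL-10R on the left and isotype on the right of each panel, with mean and SD (n = 4) and isotype replicate 1 as an open square. The groups are apart for Rrm2/Rrm2b, Ctps/Ctps2 and Tyms/Tk1 (lower after blockade) and for Mthfd1l/Mthfd1 (higher), and overlap in the other 4 pairs.

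Branch means by array put the groups side by side. The mean of the serine and folate genes was 8.03, 7.95, 7.92 and 7.85 on anti-IL-10R arrays and 8.06, 8.56, 8.41 and 8.69 on isotype arrays. That of the deoxynucleotide genes was 8.66, 8.53, 8.58 and 8.53 on anti-IL-10R arrays and 8.67, 9.05, 9.12 and 9.10 on isotype arrays. The groups were apart in all branches but salvage, where isotype replicate 1 (8.94) lay below anti-IL-10R replicate 3 (8.96). Across members the median SD among the isotype arrays was 0.26, and 0.15 among replicates 2 to 4, against 0.16 among the anti-IL-10R arrays. Of the 36 members, 19 had all anti-IL-10R arrays below isotype replicates 2 to 4, and 1, Samhd1, had them all above. The share of all tested genes that did so was not counted, and with an array left out any gene separates more easily. These 2 counts therefore describe the members and do not set them apart from other genes.

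**Figure D4:**
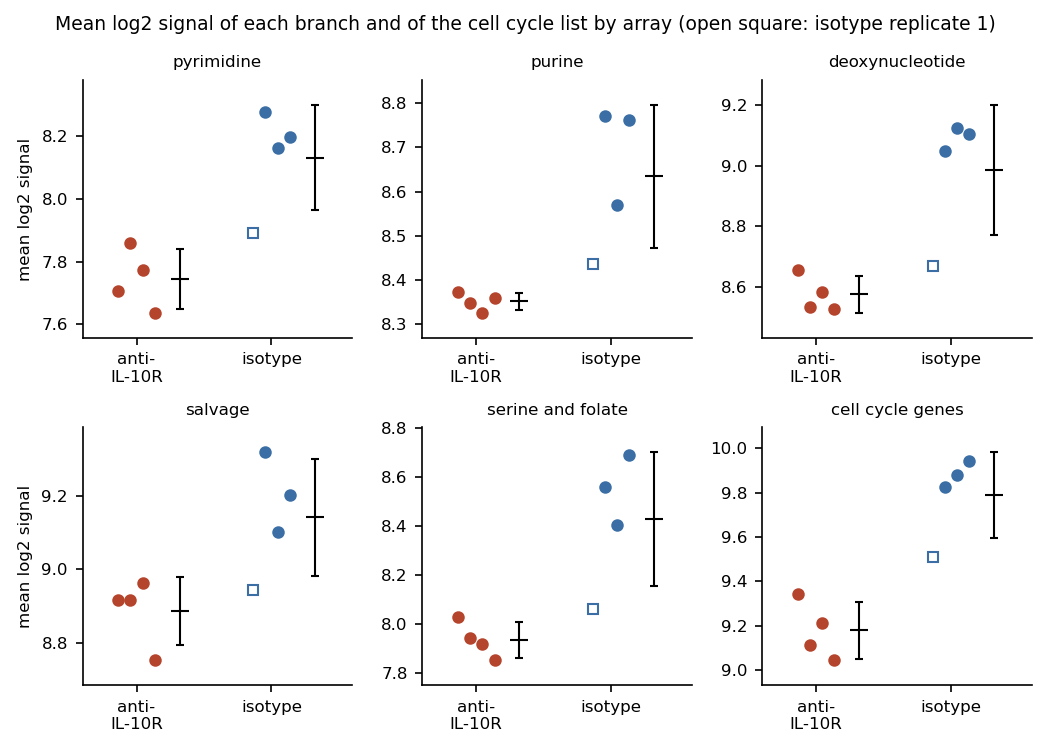
Mean log2 signal of the measured genes of each branch, and of 26 cell cycle genes, on each array, anti-IL-10R on the left and isotype on the right, with mean and SD (n = 4) and isotype replicate 1 as an open square; axes differ and do not start at 0. Isotype replicate 1 is the lowest isotype array in all 6 panels, and only the salvage groups overlap. It was also the lowest isotype array in the mean over all tested genes (7.21, against 7.43 to 7.45 on the others).

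Of 74 other genes of nucleotide and folate metabolism, 62 had a row and 53 were tested. In limma's test 4 fell (7.55%, beside 1.3% of all tested genes) and none rose past the threshold, with a median difference of -0.05. At an unadjusted p below 0.05 in limma, 9 were lower, beside 8.53% of all tested genes. In the same test 1 was higher, where 1377 of all 12019 were. Without isotype replicate 1 the count of lower genes was 8 (15.1%, beside 5.9% of all tested genes), and 2 were higher (beside 3.35%). It was 3 without anti-IL-10R replicate 1 and 2 without isotype replicates 2 or 3. The count was 0 without anti-IL-10R replicates 2, 3 or 4 or isotype replicate 4 and with the B cell covariate. Uck2, the kinase that salvages uridine and cytidine, read 9.90, 9.53, 9.77 and 9.76 on anti-IL-10R arrays and 10.55, 10.50, 10.52 and 10.73 on isotype arrays, 1.78-fold lower (limma adjusted p = 0.017). Dctpp1, which hydrolyses surplus dCTP, and Dctd, which deaminates dCMP toward thymidylate, were lower by 1.04 ± 0.15 and 1.01 ± 0.18 (SE, limma adjusted p = 0.0176 and 0.0319). Sfxn1, the carrier that brings serine into mitochondria, was lower by 0.71 ± 0.14 (limma adjusted p = 0.0372). Each of the 4 had groups apart. Uckl1, a relative of Uck2 named after its values were seen, lay the other way with groups apart, at 0.67 ± 0.16 (limma adjusted p = 0.0579, and 0.0299 without isotype replicate 1).

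Among 22 tested regulators 1 gene rose and 1 fell past the threshold in limma's test. The gene that fell is 4.55% of them, beside 1.3% of all tested genes called lower and 1.23% called higher. Without isotype replicate 1 the count of lower regulators was 6 (27.3%, beside 5.9% of all tested genes). It was 1 without anti-IL-10R replicate 1. The count was 0 without any of the other 6 arrays or with the B cell covariate, so the call of E2f8 was lost there. The gene that rose, Mxd4, passed with each array left out in turn (limma adjusted p 0.00121 to 0.0158). Mxd4, which pairs with MAX and opposes MYC, read 9.17, 9.52, 9.48 and 9.37 on anti-IL-10R arrays and 7.75, 7.94, 8.01 and 7.83 on isotype arrays (difference 1.50 ± 0.12, limma adjusted p = 0.00147). Its relatives, named after their values were seen, did not follow it. Mxd3 was lower by 0.52 ± 0.14 with overlap (limma adjusted p = 0.0826, and 0.0178 without isotype replicate 1). Mxd1, Mnt and Mxi1 differed by 0.22, 0.30 and 0.0036, also with overlap. E2f8, an E2F repressor that is itself made in S phase, was lower by 0.87 ± 0.15 (limma adjusted p = 0.0294). Myc read 8.39, 8.11, 8.11 and 7.73 on anti-IL-10R arrays and 8.46, 8.78, 8.87 and 8.59 on isotype arrays, groups apart, with a difference of -0.59 ± 0.16 that did not pass (limma adjusted p = 0.0799, and 0.0296 without isotype replicate 1). E2f7, a close relative of E2f8, differed by -0.56 ± 0.15 (limma adjusted p = 0.0826).

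Cell cycle genes that are not nucleotide enzymes were lower in their means as well. All 26 measured had lower means, where 45.3% of all tested genes did, and the median was -0.64. In limma's test 12 passed, which is 46.2%, beside 27.8% of the 36 members and 1.3% of all tested genes called lower. Without isotype replicate 1 the count was 23 (88.5%, beside 47.2% of the members and 5.9% of all tested genes). It was 1 without anti-IL-10R replicate 1 or isotype replicates 2 or 3. The count was 0 without anti-IL-10R replicates 2, 3 or 4 or isotype replicate 4 and with the B cell covariate. Their mean per array was 9.34, 9.12, 9.21 and 9.05 after blockade and 9.51, 9.82, 9.88 and 9.94 with isotype. Plk1, the mitotic kinase, was lower by 0.84 ± 0.11 and Ccne1, the cyclin of S phase entry, by 0.71 ± 0.11 (SE, limma adjusted p = 0.017 and 0.0227). Nusap1, a spindle protein, was lower by 0.65 ± 0.12, and Ube2c, a ubiquitin-conjugating enzyme of mitosis, by 0.66 ± 0.12. The 8 others past the threshold were Birc5, Cenpe, Cdt1, Cdk1, Cdc20, Tpx2, Bub1 and Ccna2, lower by 0.53 (Ccna2) to 0.92 (Birc5). The part of dividing cells in the differences of the nucleotide genes was not tested.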

How the data were processed

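RNA of sorted splenic T cells was hybridised to GeneChip Mouse Gene 2.0 ST arrays by the WT Pico procedure, per the labels' protocols. The log2 signals, 1 per transcript cluster and array, were deposited as the authors made them with a tool named in the submitters' processing notes, Affymetrix Power Tools, and their scale was read from their range of 1.57 to 13.89. Neither the algorithm nor the way arrays were normalized is stated there. Scanner files were not used, so detection was not set, and precision is limited by the number of arrays. Levels are not compared between genes, only log2 ratios of a pair between groups.

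The table holds 41345 rows, of which 23521 carry 1 gene symbol (the platform's annotation), 1814 several and 16010 none. The brightest row per gene gave 22180 genes, and 12019 with a mean of at least the median of all row means were tested with lmFit and eBayes of limma 3.58.1 (R 4.3.3, total degrees of freedom 9.59, two-sided, Benjamini-Hochberg over all tested genes, threshold 0.05). The limma fit was tried on simulated arrays with independent genes and no outlying array, and the permutation on a made-up set of values. Neither covers an array like isotype replicate 1. Pairs were compared by exact permutation of the 8 arrays, two-sided, adjusted over 8 pairs. Every member is accounted for, and array values are given for those past the threshold with or without isotype replicate 1, the 2 with the smallest p in each branch and the pairs. Of other lists, genes past the threshold and those with the smallest p are named. The members, branches and lists were chosen with earlier results of these data known, and the motifs and the 5 printed promoters after the differences were seen. Alternatives were filters, scalings, variance models, blocks, a B cell covariate, thresholds and each array left out.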

Additional observations from a re-analysis of the deposited data

Results flagged for a closer look

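Among 100 groups of 4 arrays checked for a sample far from the others (36 genes, 6 means and 8 ratios, each in both groups), 2 held one, both times isotype replicate 1. Chance alone flags about 1 in 20 such groups. For Tyms that array read 10.06, against 9.47 to 9.55 on the 3 other isotype arrays. For the mean of the deoxynucleotide genes it read 8.67, against 9.05 to 9.12 on the others, so it lay above its group in the first case and below it in the second.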

How the results depend on the processing

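Of the 10 genes called lower, all kept their direction in every alternative, which groups that do not overlap fix in part. The count of members lower, 10, was 5 without a filter, 1 over all rows of the table, 19 with array weights, and 0 with the Welch test, with the description's replicate number as a block, with the B cell covariate and at a threshold of 0.01; it was 0 to 17 with 1 array left out. No member was higher past the threshold in any of these fits. Arrays with the same number shared little of their deviations (correlations -0.10 to 0.02), but so few arrays cannot show whether they are paired. The title numbers match the same arrays as replicates 2, 3 and 4 of the description. The title block, over 6 arrays, therefore differs from the description block only by leaving out replicate 1 of both groups, and it gave 13. Medians that moved were pyrimidine with the stricter filter (-0.67), purine with array weights (-0.42) and serine and folate with the title block (-0.76). The salvage median was -0.30 with the covariate, a change within the spread between replicates. With 1 array left out medians ran from -0.50 to -0.35 (pyrimidine), -0.39 to -0.22 (purine) and -0.58 to -0.37 (deoxynucleotide). They ran from -0.25 to -0.12 for salvage and from -0.68 to -0.44 for serine and folate. The cause of these moves was not tested.

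For all genes, 156 lower and 148 higher, the counts were 78 and 67 without a filter, 427 and 204 after quantile normalization, 307 and 219 with arrays centred, 46 and 57 over all rows, 815 and 654 with array weights, 9 and 17 with the Welch test, 2 and 2 with the description block, 350 and 153 with the title block, 1 and 2 with the B cell covariate, 1 and 2 at 0.01 and 420 and 476 at 0.1. With the stricter filter 239 were higher, and with trended and robust variance 225. With 1 array left out they ran from 1 to 709 and from 2 to 403. Cell cycle genes lower (12) were 4 without a filter, 20 with the stricter filter, 21 after quantile normalization, 20 with arrays centred, 2 over all rows, 19 with trended variance, 23 with array weights, 1 with the Welch test, 22 with the title block, 21 at 0.1, 0 with the description block, the covariate and 0.01, and 0 to 23 with 1 array left out. Other pathway genes lower (4) were 2 over all rows, 7 with array weights, 0 with the Welch test, the description block, the covariate and 0.01, and 0 to 8 with 1 array left out. Those higher (0) were 1 with the stricter filter, quantile normalization, arrays centred, the title block and 0.1, 2 with array weights, and 0 to 2 with 1 array left out. Regulators lower (1) were 6 after quantile normalization, with array weights and at 0.1, 4 with arrays centred and the title block, 0 over all rows, with the Welch test, the description block, the covariate and 0.01, and 0 to 6 with 1 array left out; those higher (1) were 2 with trended variance, array weights, the Welch test and 0.1.

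Differences near 0 changed sign. Impdh1 was -0.0794 after quantile normalization, -0.0327 with arrays centred, -0.00454 with the title block and -0.176 with the covariate. With 1 array left out Impdh1 ran from -0.0845 to 0.0673, Cmpk1 from -0.319 to 0.113, Tk1 from -0.166 to 0.0253 and the ratio of Shmt2 to Shmt1 from -0.203 to 0.0705. No pair passed after adjustment under any alternative run.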
